A study of Danio rerio with 2 samples.

Results

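The introns described here are the 1240 introns longer than 20000 bp among 55660 listed introns of zebrafish (Danio rerio) gene models. They were chosen by length alone: each had a length over 20000 bp and was listed under a single Refseq gene ID, as 54539 introns were. A further 44 introns of that length were listed under several gene IDs and were not included. The long introns lay in 971 gene IDs on 25 chromosomes, and 898 of these IDs had a gene symbol.

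Reads came from poly(A) RNA of whole larvae at 108 hours post-fertilization (hpf). One library was made from larvae homozygous for the clbn (caliban) allele labelled clbns841, and one from wildtype larvae of the same stage. Each library pooled about 60 larvae that had been genotyped singly, so a pool stands for a genotype without any measure of the spread between animals. All larvae, mutant and wildtype, were raised at 28.5 °C with 0.003% 1-phenyl-2-thiourea (PTU), which blocks pigment, from 24 hpf. With 1 library per genotype there was no replicate error anywhere. Tests and intervals therefore compare these libraries and not the genotypes. The tests and the intervals of read ratios cover counting error only. Intervals of medians and of shares reflect the number and spread of introns or genes, taken as independent.

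Introns are cut out of the primary transcript by the spliceosome, a large particle that recognises short sequences at both intron ends. Most introns are removed by the major spliceosome, and a rare class, the U12-type introns, by the minor spliceosome. The gene mutated in clbn is, as background knowledge, rnpc3, whose product is a protein of the U11/U12 particle, a part of the minor spliceosome. A long intron takes RNA polymerase a long time to transcribe, is often the first intron of its gene, and is common in genes of the nervous system and of development. Reads inside an intron can come from RNA that is not yet spliced, from a retained intron, from the released intron, or from another gene that lies inside it.

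The mutant library held 25718058 reads and the wildtype library 28309779. Gene reads of rnpc3 were 109 in the mutant library and 273 in wildtype. Markers of muscle (mylpfa), epidermis (krt4), neurons (elavl3) and liver (fabp10a) had between 0.962 and 1.04 times the wildtype level per library read, and the red blood cell gene hbae3 had 1.37 times. These markers were chosen after their values were seen. The lens gene crybb1 had 7929 mutant and 21151 wildtype gene reads, and the exocrine pancreas gene prss1 had 18101 and 61069, which was 0.413 and 0.326 times the wildtype level. In such bulk RNA fewer cells of a type and less RNA per cell cannot be told apart, and the part of these differences in the intron results was not tested.

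The long introns ranged from 20040 bp to 946433 bp, with a median of 35012 bp and quartiles of 25399 and 61948 bp, and 147 of them exceeded 100 kb. A single long intron was found in 779 genes, 2 in 134 genes, 3 in 43 genes, 4 in 11 and 5 in 4 genes. Some long introns overlapped, so that the 1240 introns formed 1180 separate loci. At the limit stood introns of uvrag (20040 bp), hibadha (20053 bp) and lmo3 (20073 bp) just above it, and of snap25a (19993 bp), nckap1 (19961 bp) and bmpr1ab (19946 bp) just below it. The intron of lmo3 had 44 mutant and 36 wildtype reads, and that of snap25a had 57 and 66.

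The longest intron belonged to ext1c, of the exostosin family of heparan sulphate synthesis enzymes (chromosome 19, 49242583 to 50189015 on Zv9). It held 13035 reads in the mutant library and 13129 in wildtype. The first intron of cul4a, which codes for a scaffold of a ubiquitin ligase, spanned 598291 bp and held more reads than any other, 32205 in the mutant and 34550 in wildtype. Both are crowded regions as listed, since introns of 18 and 29 other gene IDs lay inside them. All lengths are those of the listed gene models on Zv9. Whether each model is placed correctly was not tested, so an extreme length need not be the true one. An intron of similar size without any listed intron of another gene was much emptier. In asic2, which codes for an acid-sensing ion channel, 677618 bp held 624 mutant and 616 wildtype reads. In cadm2a, a cell adhesion gene, 511766 bp held 408 and 359 reads.

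Long introns were concentrated at the 5' end of genes. Among genes with at least 3 listed introns, 444 of 965 long introns (46.0%) were the 5'-most listed intron of their gene, against 271 of 5007 other introns of these genes (5.41%). The last position was held by 82 long introns (8.50%). The table lists introns with a read in each library, so a position is that among listed introns.

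Among the gene classes set here, those of cell adhesion and axon guidance held long introns most often. Of 110 listed genes for cell adhesion and synapse organisers, 67 held one (60.9%, exact binomial 95% interval 51.1 to 70.1%). Of these 67 genes 30 were protocadherins, and long introns of 11 of them shared 1 end on chromosome 14. The share was 36.5% for axon guidance genes (23 of 63), 26.2% for Wnt, Notch, BMP, TGF-beta and Hedgehog pathway genes (21 of 80) and 22.4% for developmental transcription factors (56 of 250). It was 21.3% for neurotransmitter receptors and synaptic genes (20 of 94) and 20.7% for extracellular matrix and glycan enzyme genes (17 of 82), and 16 of 80 ion channel genes held a long intron. Over all 10715 listed gene IDs the share was 9.06%, or 971 genes. At the other end, 5 of 359 genes matched for ribosome, proteasome and respiratory chain subunits held a long intron (1.39%, 0.454 to 3.22%). The pattern of this class also took in symbols of translation initiation factors, spliceosome proteins and RNA polymerase subunits. Among the 5 genes are the initiation factor genes eif2b5 and eif3ha, and rps6ka3b, a kinase caught by its symbol. Classes were set by patterns of gene symbols with earlier results of these data known, and the ribosome class was set as a contrast. The ranking therefore holds among these classes only. Other misfits occur, and the intervals take genes as independent although related genes share a cluster.

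**Figure D1:**
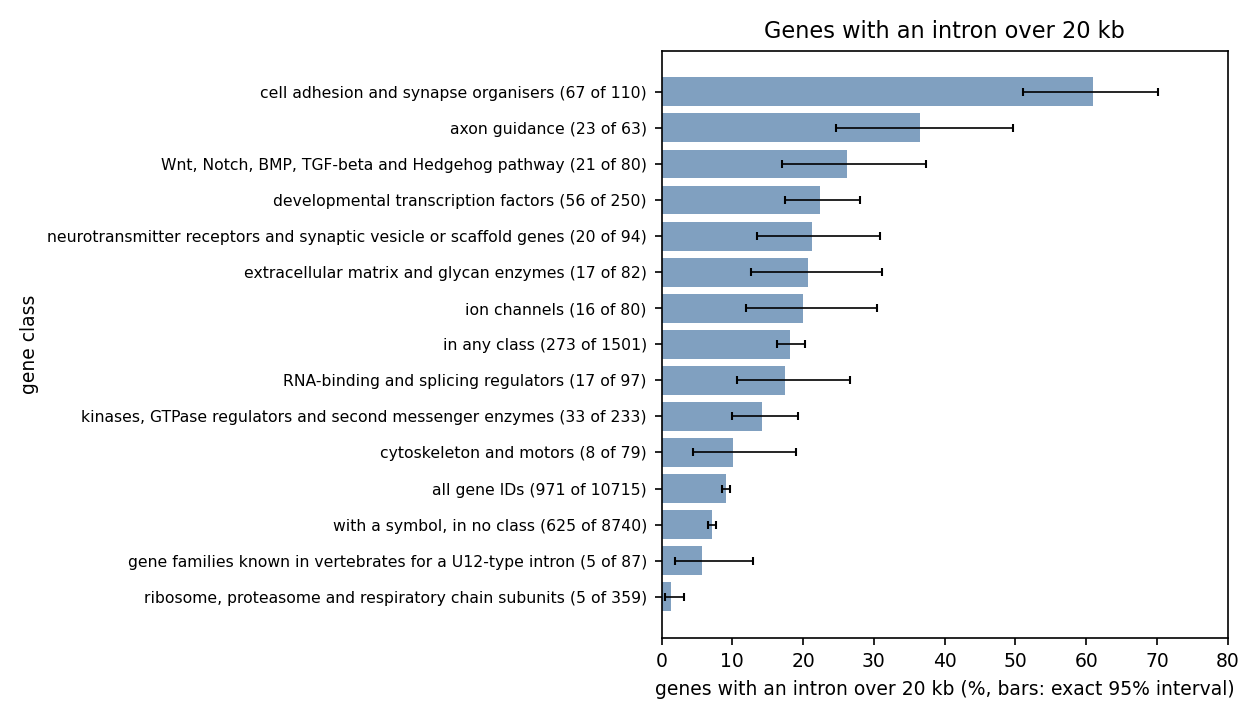
Share of listed genes that hold an intron over 20 kb, by gene class, in percent, with exact binomial 95% intervals as error bars and gene numbers in brackets. Cell adhesion and synapse organisers stand at 60.9%, and 30 of their 67 genes with such an intron are protocadherins. All gene IDs stand at 9.06%. The class of ribosome, proteasome and respiratory chain subunits stands at 1.39%, and it also takes in translation initiation factors, spliceosome proteins and RNA polymerase subunits.

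Some genes held several such introns. As many as 5 long introns each were listed for cldnj, a claudin of tight junctions, for kcnma1a, the large-conductance calcium-activated potassium channel, for plxna3, a semaphorin receptor, and for dhx36, an RNA helicase. They were all 5 listed introns of cldnj, and 5 of 18, 25 and 12 listed introns in kcnma1a, plxna3 and dhx36. In plxna3 the 5 long introns on chromosome 8 held 31, 98, 24, 197 and 64 reads in the mutant library and 27, 88, 20, 181 and 60 in wildtype. All 5 thus had slightly more reads in the mutant library, beside 1185 and 1177 gene reads, and none was called. In kcnma1a the long introns differed from each other in direction. The intron at chromosome 13, 16571869 to 16671170, had 416 mutant and 294 wildtype reads (1.44-fold relative to the gene, 1.20 to 1.74, adjusted p = 0.0027 by Fisher's exact test), which passed the p threshold but not the 2-fold size. The one at 16782075 to 16806416 had 60 and 94 reads (0.651-fold, 0.456 to 0.925, adjusted p = 0.13).

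The long introns contributed far fewer reads than their length. They were 2.23% of listed introns and 34.6% of the unique intron length, and they held 353443 of 1815511 intronic reads in the mutant library (19.5%) and 383207 of 1973538 in wildtype (19.4%). Reads were unevenly spread, and 10 introns held 32.0% of these reads in the mutant library and 35.8% in wildtype. The median long intron had 67 mutant and 65 wildtype reads. The unique part, on which reads could be placed, was a median 74.0% of a long intron and 90.7% of a shorter one.

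The retention coefficient relates the level of an intron to that of its gene. It is the intron's RPuKM divided by the deposited gene value. RPuKM is the number of reads per kilobase of unique intron length, scaled to library size, and the gene value is scaled in the same way. It was used for the 1178 long introns in 922 genes that had a deposited gene value and whose intronic reads, both libraries summed, came to 20 or more. Of the others, 41 had no gene value and 21 with one had fewer reads. The median coefficient of long introns was 0.0132 in the mutant library (quartiles 0.00688 and 0.0274) and 0.0121 in wildtype (0.00599 and 0.0260). The 19045 tested introns of up to 20 kb had medians of 0.0353 in the mutant and 0.0345 in wildtype.

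By length, the coefficient fell down to the class of 5 to 20 kb and changed little beyond. Introns of up to 150 bp had medians of 0.290 in the mutant and 0.288 in wildtype, and introns of 1 to 5 kb had 0.0245 and 0.0243. Those of 5 to 20 kb, next to the long introns, had 0.0152 and 0.0143. The low coefficient was thus not particular to introns over 20 kb. Long introns had 0.0135 and 0.0129 at 20 to 30 kb, 0.0111 and 0.0102 at 30 to 50 kb, and 0.0134 and 0.0113 at 50 to 100 kb. Above 100 kb the medians were 0.0171 in the mutant and 0.0136 in wildtype. The minimum of 20 reads bears on this curve, since a short intron needs a high level to reach it.

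**Figure D2:**
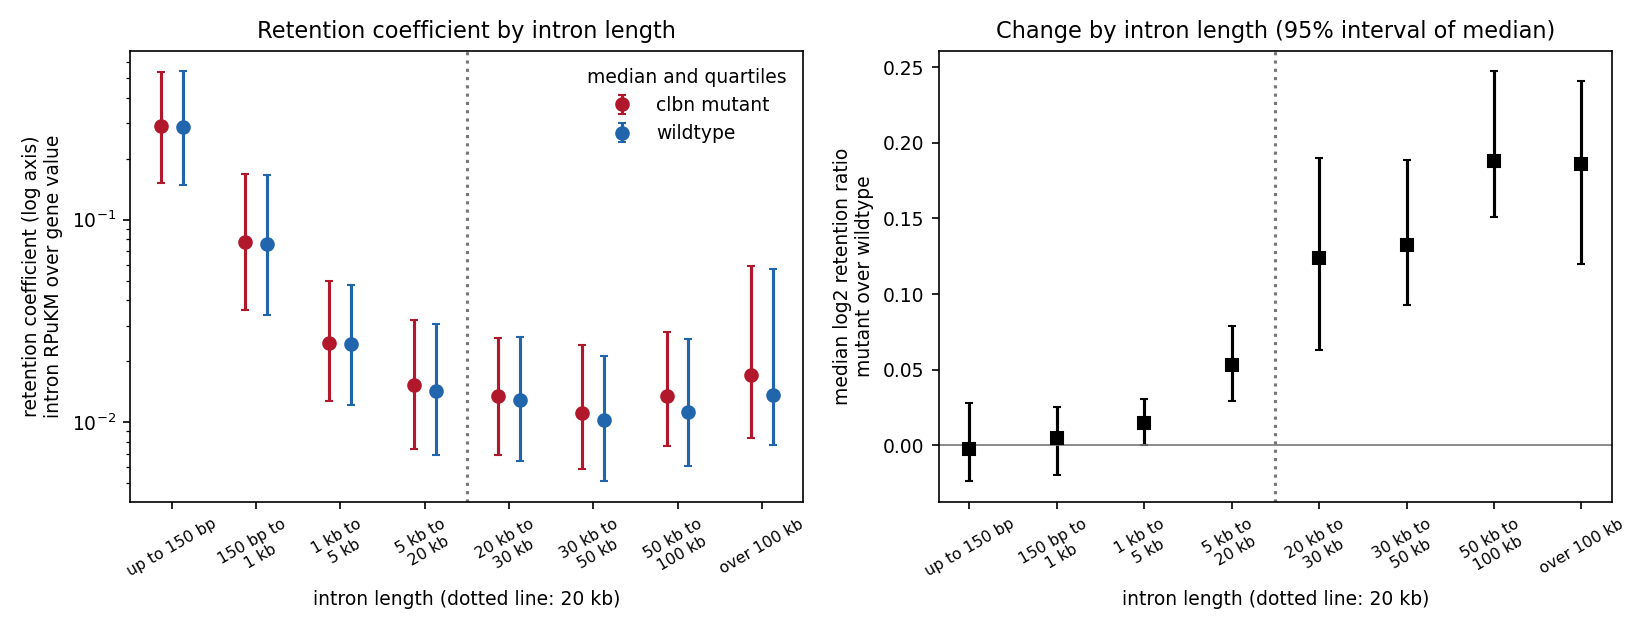
Left, retention coefficient (intron RPuKM over gene value, log axis) of tested introns by length, with the median as a point and quartiles as bars, for the clbn mutant library and the wildtype library. Right, median log2 retention ratio, mutant over wildtype, with its 95% order-statistic interval; it is -0.0025 for introns of up to 150 bp and 0.19 for those over 100 kb.

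The same order held inside genes among listed introns, although the listing itself favours it. In 702 genes that had both a long and a shorter listed intron, with at least 20 reads for each kind, the long intron had the lower RPuKM in 513 genes (73.1%) of the mutant library and 531 (75.6%) of wildtype. The shorter introns of the same gene were at a median 1.71-fold higher level in the mutant library and 1.90-fold in wildtype. Only introns with a read in each library are listed, and the minimum of 20 reads applied to the summed reads of each kind. Short introns of low level are therefore missing, and how far this sets the order was not tested.

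Coefficients near 1 or above occurred in genes with a low gene value. The coefficient was above 1 for 2 long introns in the mutant library and for 5 in wildtype. An intron of cldnj (chromosome 15, 1575446 to 1632599) had 2.64 in the mutant and 3.26 in wildtype, from 3156 and 3655 intronic reads beside 31 and 29 gene reads. Listed introns of 2 other gene IDs, among them kpna4, lay inside this cldnj intron, so its reads need not be those of cldnj. An intron of pkn1b, which codes for a protein kinase, had 1.65 and 1.15, without a listed intron of another gene inside. The low end held strongly expressed genes of muscle and brain. The intron of srl, which codes for sarcalumenin of the sarcoplasmic reticulum, had 30 mutant and 31 wildtype reads beside 2550 and 2794 gene reads. That of stxbp1a, which codes for a syntaxin-binding protein of synaptic release, had 45 and 40 reads beside 4753 and 5580 gene reads.

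Long introns with a listed intron of another gene ID inside had more reads per length. Another ID can belong to the same gene, as inside the second long intron of mbnl1, and enclosed genes without a listed intron were not seen. In 122 long introns a listed intron of another gene ID lay inside. The 112 of these that were tested had a median RPuKM of 0.519 in the mutant and 0.526 in wildtype, against 0.0873 and 0.0783 for the 1066 without one. On chromosome 9, overlapping introns of 2 genes without a symbol enclose crystallin genes such as crygm2d, which make lens proteins. The one at 23180129 to 23372255 had 16067 mutant and 27241 wildtype reads, and the one at 23168386 to 23332233 had 11298 and 20758. Per library read they had 0.649 and 0.599 times the wildtype level. Relative to the reads of their own gene ID the ratios were 1.02 and 1.11. Whether reads were counted by strand is not given in the sources used here, so reads of the host and of the enclosed gene cannot be told apart.

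Between the libraries the long introns differed by little, with a majority of ratios upward. Change was measured as the log2 retention ratio, mutant over wildtype, of intronic reads per gene read, with 0.5 added to each number. Its median over long introns was 0.16 (95% interval 0.13 to 0.19, quartiles -0.14 and 0.45), and 779 of 1178 introns (66.1%) were positive. Shorter introns had a median of 0.02, with 51.3% positive. The median was 0.12 at 20 to 30 kb (n = 458), 0.13 at 30 to 50 kb (n = 329), and 0.19 both at 50 to 100 kb (n = 256) and above 100 kb (n = 135). It was 0.05 at 5 to 20 kb and within 0.02 of 0 for every shorter class. The intervals treat each intron as independent, which introns of 1 gene are not, since they are divided by the same gene reads. When reads were scaled by library total in place of gene reads, the median was 0.16 for long introns and 0.04 for shorter ones.

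The upward shift was seen over the whole range of read numbers. Long introns with 20 to 49 reads had a median log2 ratio of 0.32, those with 100 to 199 reads 0.13, and the 187 with 500 or more reads 0.11. Shorter introns of the same read numbers had 0.01, 0.02 and -0.0011. The shift did depend on the level per length. The 142 long introns with a mean RPuKM under 0.05 had a median ratio of 0.45 (0.32 to 0.57). The 131 shorter introns at that level had 0.43, with a wide interval of 0.02 to 0.60. At 0.05 to 0.1 the medians were 0.19 for long and 0.05 for shorter introns. They were 0.12 and 0.03 at 0.1 to 0.2, 0.10 and 0.02 at 0.2 to 0.5, and 0.02 and 0.01 at 0.5 or more. On the RPuKM scale itself the median difference, mutant minus wildtype, was taken in the same groups of long introns. From the lowest level to the highest it was 0.0175, 0.0097, 0.0130, 0.0257 and 0.0342. Their genes did not move in parallel: the median log2 gene level ratio was 0.01 over 931 genes with a long intron and 0.06 over 9244 other genes. The sign for genes with a long intron depends on the scaling, and with edgeR's TMM factors their median was -0.038.

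**Figure D3:**
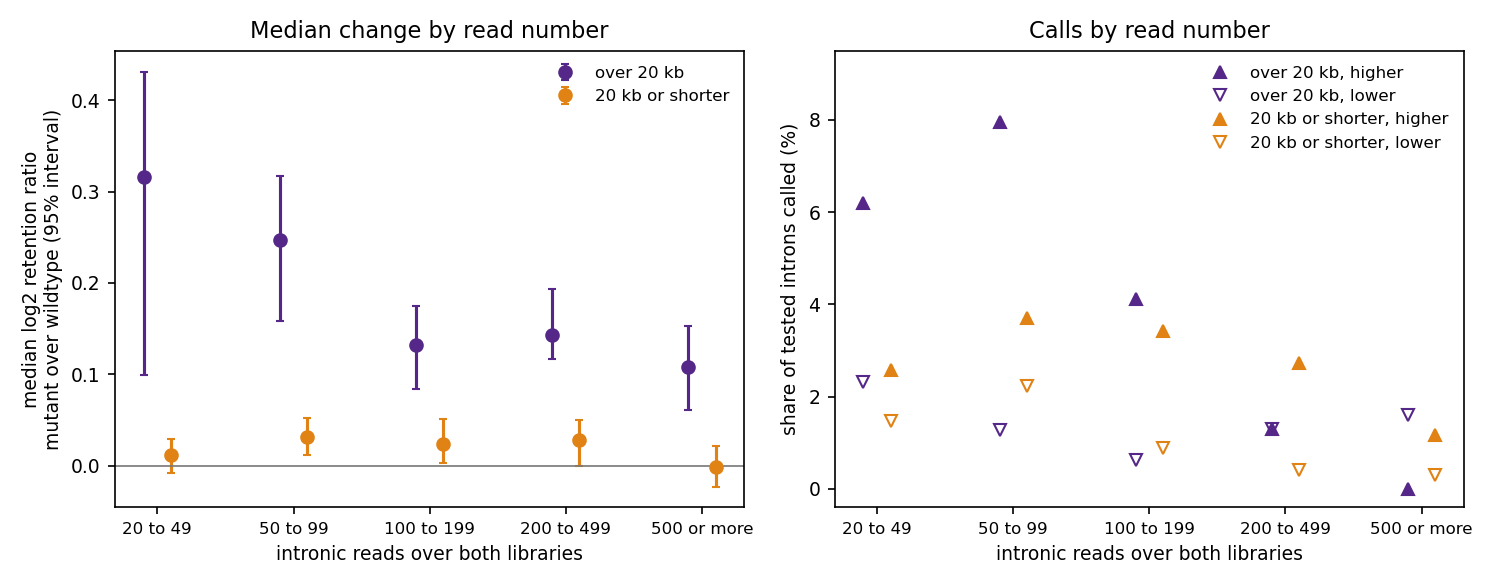
Left, median log2 retention ratio, mutant over wildtype, with its 95% order-statistic interval, by the number of intronic reads over both libraries, for introns over 20 kb and for shorter ones. Right, share of tested introns called higher or lower in the mutant library; long introns with 50 to 99 reads reach 7.96% higher, and none of the 187 with 500 or more reads was called higher.

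The shift was also present when a long intron was set against the shorter introns of its own gene, which removes the gene reads from the comparison. Across the same 702 genes the long intron's log2 change exceeded that of the shorter ones by a median of 0.13 (quartiles -0.22 and 0.49), and it did so in 415 genes (59.1%) against 285 with the opposite sign. In 302 genes with at least 100 reads for each kind the median was 0.12, with 180 positive. Long introns without a listed intron of another gene ID inside had 1.11 times the wildtype reads per library read when summed (1.10 to 1.12). Summed over all long introns the figure was 1.02, close to the 1.01 of shorter introns.

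Single introns were called at an adjusted p under 0.05 (Fisher's exact test, two-sided, Benjamini-Hochberg over all 20223 tested introns) and at least 2-fold change. Among long introns 49 in 48 genes were higher in the mutant library (4.16%, 3.09 to 5.46%) and 15 in 14 genes were lower (1.27%, 0.714 to 2.09%). The share over all tested introns was 2.92% higher and 1.46% lower. These intervals take introns as independent, although 85 of the 1240 long introns overlap another and some share a gene. Tested long introns also had a median of 138 reads over both libraries, against 39 for shorter ones. More reads let a smaller change be called. At 20 to 49 reads 6.20% of long and 2.57% of shorter introns were higher. The shares were 7.96% and 3.70% at 50 to 99 reads, and 4.11% and 3.41% at 100 to 199. They were 1.29% and 2.74% at 200 to 499 reads, and 0% and 1.17% at 500 or more. The larger share of long introns was thus found below 200 reads only. What part read number has in the shares was not tested. Most long introns were thus called in neither direction, and 5 of the higher and 3 of the lower ones reached 4-fold. The calls lay between 20189 and 81870 bp for higher introns, and no intron among the 135 above 100 kb was called higher. Scaled by library total, 54 long introns were higher and 11 lower (background 3.89% and 2.47%), of which 39 and 10 were also called relative to gene reads.

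**Figure D4:**
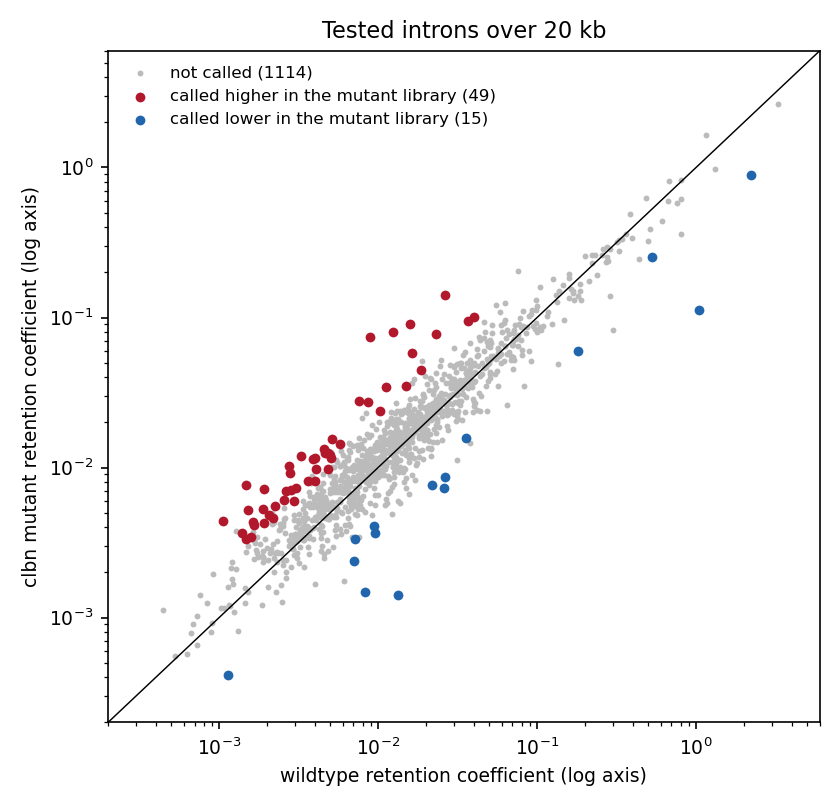
Retention coefficient of the 1178 tested introns over 20 kb in the clbn mutant library (vertical, log axis) and the wildtype library (horizontal, log axis), with the line of equal values. The 49 introns called higher lie above the line and the 15 called lower lie below it.

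The intron with the largest ratio was in cacna1da, which codes for the pore-forming subunit of an L-type voltage-gated calcium channel. It is the 5'-most of 18 listed introns (chromosome 11, 37756376 to 37796602) and had 81 reads in the mutant library against 13 in wildtype, beside 263 and 353 gene reads. Relative to gene reads this was 8.36-fold higher (4.49 to 16.7, adjusted p = 1.1e-13 in Fisher's exact test). The 2 other tested introns of the gene together had 21 mutant and 30 wildtype reads and were not called.

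The N-type calcium channel gene cacna1ba had 3 neighbouring higher introns at its 5' end. Its long intron (chromosome 5, 31062113 to 31119218) had 90 mutant and 20 wildtype reads beside 164 and 209 gene reads, a 5.73-fold rise (3.32 to 10.2, adjusted p = 1.7e-10). Next to it, the intron at 31119359 to 31123265 had 40 mutant reads and 1 wildtype read, and the one at 31123372 to 31126469 had 106 and 12. The 5 tested introns further downstream, with 5 to 15 mutant and 6 to 17 wildtype reads each, were not called. Both calcium channel genes belong to families known, as background, for a U12-type intron in vertebrates. The list of such families was set by symbol patterns with earlier results of these data known. Its values are therefore a description and no separate support. The listed families held 5 tested long introns, in cacna1ba, cacna1da, ctnnbl1, cul4a and ppp2r2bb. Their median log2 ratio was 0.52, and apart from the 2 in calcium channel genes none was called. This median is the value of cul4a, whose intron encloses introns of 29 other gene IDs. Per library read its intronic reads were 1.03 times the wildtype level, while its gene reads were 701 in the mutant library and 1080 in wildtype. Which of these introns is itself U12-type was not read, since no genome sequence of the build was used here.

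The 5'-most intron of ube2h, which codes for a ubiquitin-conjugating enzyme, had 192 mutant and 46 wildtype reads (chromosome 4, 14076905 to 14112584). With 2331 and 2878 gene reads the rise was 5.15-fold (3.70 to 7.31, adjusted p = 7.2e-26 by Fisher's exact test). Its other tested intron was higher too, with 47 mutant and 7 wildtype reads. An intron of a gene without a symbol (chromosome 17, 12749825 to 12774282) had 286 mutant and 52 wildtype reads beside 671 and 785 gene reads, a 6.43-fold rise (4.68 to 8.97, adjusted p = 1.3e-37). In dynlt5, which codes for a dynein light chain, the ratio of 5.35 rested on gene reads, 11 in the mutant and 28 in wildtype. Its intronic reads were 21 and 10, and it was not called by library total.

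**Figure D5:**
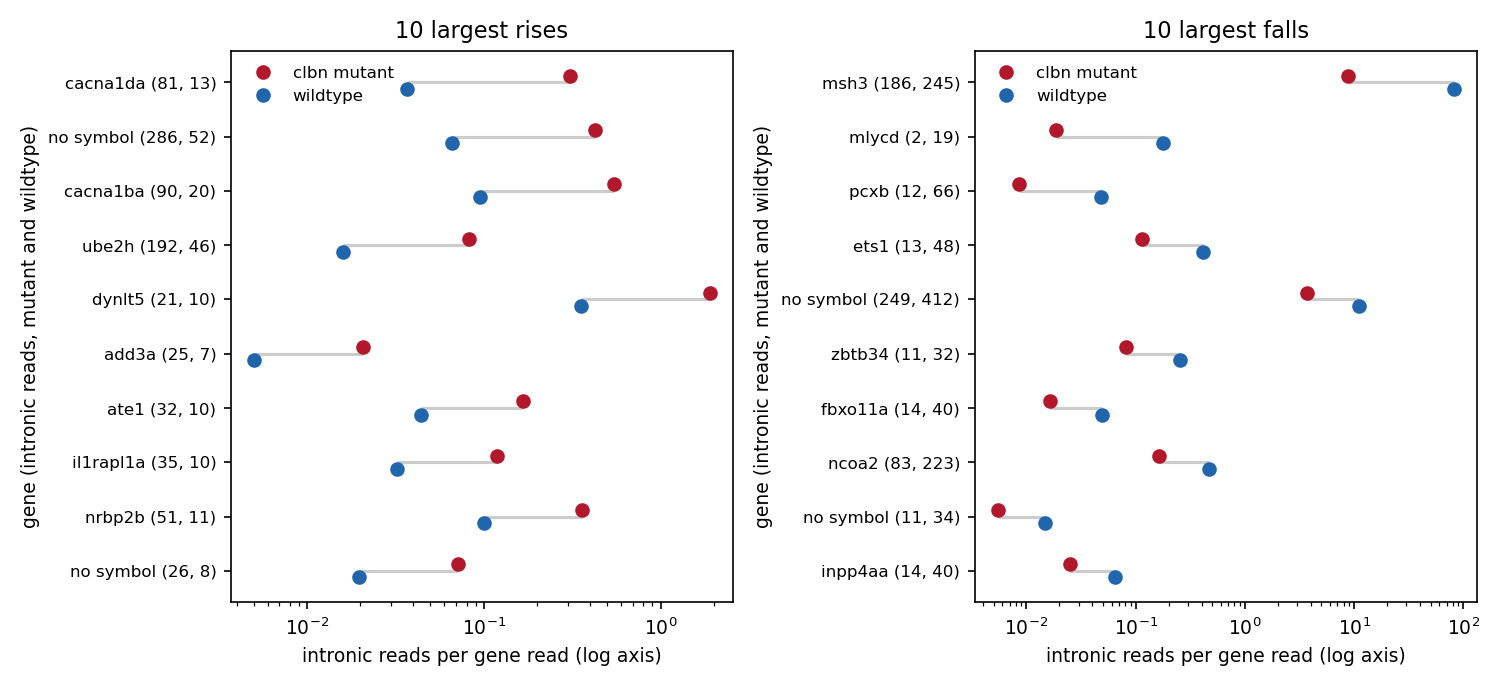
Intronic reads per gene read (log axis) in the clbn mutant and wildtype libraries for the 10 called introns with the largest rise (left) and the 10 with the largest fall (right), with mutant and wildtype intronic reads in brackets. The largest rise is that of cacna1da, with 81 and 13 reads, and the largest falls are those of msh3, with 186 and 245 reads, and mlycd, with 2 and 19. In msh3 and a gene without a symbol (249 and 412 reads), intronic reads exceeded the recovered gene reads in both libraries. Recovered gene reads are the smallest possible, and the true ones may be a multiple.

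The other higher introns are grouped here by known roles of their genes, a grouping made after their values were seen. Several belong to genes of vesicle traffic and the synapse. The intron of stxbp5l (tomosyn family, a regulator of SNARE complexes) had 89 mutant and 45 wildtype reads beside 246 and 391 gene reads (3.14-fold, 2.09 to 4.77, adjusted p = 6e-07). The intron of il1rapl1a, a synapse-organising receptor, had 35 and 10 reads. That of scamp1, a secretory carrier membrane protein gene, had 33 and 11. In stx8, a SNARE gene, reads were 41 and 27, and in rab6ba, a Golgi GTPase gene, 38 and 22. The last 2 rested in part on lower gene reads and were not called by library total. The other tested intron of rab6ba had 67 mutant and 9 wildtype reads and was called higher as well.

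Regulators of transcription and chromatin made up another group. The intron of hdac4, a histone deacetylase gene, had 38 mutant and 14 wildtype reads (3.04-fold, 1.58 to 6.16). The 13 other tested introns of the gene, with 362 and 308 reads in all, were not called but leaned the same way, with a median log2 ratio of 0.54. The 5'-most intron of top2b, a DNA topoisomerase gene, had 48 and 19 reads (2.60-fold, 1.49 to 4.69), and none of its 17 other tested introns was called. Further members were arid3b (75 and 35 reads), the paired-box factor gene pax7b (45 and 22), the Runt factor gene runx3 (43 and 22), arnt2 (58 and 31), supt3h of the SAGA complex (40 and 19) and hlfa (113 and 69). Of these, hlfa was not called by library total. The RNA-binding splicing regulator mbnl1 was divided: its 5'-most long intron had 49 mutant and 23 wildtype reads and was called, and its second had 1119 and 1335 reads and was not (1.07-fold, 0.805 to 1.43).

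Genes of the extracellular matrix and of cell adhesion were the third group. In col11a1a, a fibrillar collagen gene of cartilage, the intron at chromosome 24, 29779726 to 29800346, had 113 mutant and 49 wildtype reads beside 11240 and 11002 gene reads. That was 2.26-fold higher (1.60 to 3.23, adjusted p = 8.4e-05 by Fisher's exact test), and of its 57 other tested introns 1 was called higher and 1 lower. The 5'-most intron of lama5, a laminin gene of basement membranes, had 60 and 25 reads. Long introns of the receptor phosphatase gene ptprfb had 55 and 24 reads, of loxl3b, a lysyl oxidase family gene, 37 and 11, and of crim1 71 and 33. In all 3 genes the other tested introns were not called.

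Further higher introns were in genes of signalling and of various cell functions. The 5'-most intron of the insulin receptor gene insra had 112 mutant and 53 wildtype reads (2.29-fold, 1.62 to 3.25, adjusted p = 4.9e-05), whereas its 5 other tested introns together had 73 and 96. The intron of wdfy1 had 78 and 23 reads, that of the polarity gene llgl1 199 and 64, and that of the sialyltransferase gene st3gal3b 81 and 41. The single listed intron of ate1, an arginyltransferase gene, had 32 and 10 reads, and that of chchd6a, a gene of the mitochondrial cristae, 47 and 22. The first intron of slc4a11, a membrane transporter gene, had 42 and 12 reads, and that of the membrane protease gene sppl3 had 62 and 27. Among the rest were introns of add3a, a membrane skeleton gene of the adducin family (25 and 7 reads), nrbp2b (51 and 11), smap1 (28 and 16), cpne5a (74 and 20), csnk1g1 (39 and 20), traf4a (65 and 34), znrf1 (52 and 32) and zgc:63587 (69 and 27), and 5 introns of 4 genes without a symbol. Those of smap1, csnk1g1 and znrf1, and 3 of the 5 without a symbol, were not called by library total. Of the 49 higher introns 43 were in a gene with another tested intron, and in 32 of these no other intron was called higher. The same count was not made for shorter called introns, so it does not set the long ones apart. In genes with at least 3 listed introns, 18 of 436 tested long introns that were 5'-most were higher and 6 lower, and 21 of 503 later ones were higher and 3 lower; both higher shares were close to the 4.16% of all long introns.

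The clustered protocadherins, adhesion molecules of neurons whose variable first exons are joined to shared constant exons across a long intron, accounted for 4 of the higher calls. The introns of pcdh2aa15 (89 mutant and 40 wildtype reads), pcdh2ab7 (73 and 33), pcdh2ab10 (69 and 33) and pcdh2ab12 (66 and 33) all end at position 2775368 of chromosome 14. They lie inside one another, share reads and are not independent. In all, 11 long introns shared that end, and 11 of 11 had a positive log2 ratio, with a median of 0.98. All 11 overlap at the shared end, so they are not separate observations. Gene reads of the 4 called ones were nearly equal too, between 1479 and 1484 in the mutant library and between 1759 and 1761 in wildtype. Over the 36 protocadherin introns the median was 0.27, and their gene reads were lower in the mutant library with a median log2 ratio of -0.11. Without protocadherins 45 of 1142 long introns were higher, 15 were lower, and the median log2 ratio was 0.15.

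Fewer long introns were lower in the mutant library, and some of them rested on gene reads that were small as recovered here. The clearest case was pcxb, which codes for pyruvate carboxylase, with 1405 mutant and 1384 wildtype gene reads. Its intron at chromosome 7, 61214564 to 61256721, had 12 mutant and 66 wildtype reads (0.179-fold, 0.0878 to 0.336, adjusted p = 3.3e-08 by Fisher's exact test), and the one at 61012040 to 61125802 had 112 and 254 (0.434-fold, 0.340 to 0.552). Other introns of pcxb leaned the same way. Beside the first of these 2, its 10 other tested introns, the second included, had 304 mutant and 565 wildtype reads in all. Their median log2 ratio was -0.78. The first intron of ncoa2, a nuclear receptor coactivator gene, had 83 and 223 reads (0.351-fold, 0.261 to 0.468, adjusted p = 8.3e-12), at 504 and 475 gene reads. The intron of mlycd, which codes for malonyl-CoA decarboxylase, had 2 mutant and 19 wildtype reads (0.105-fold, 0.0117 to 0.457). The transcription factor gene ets1 had 13 and 48 reads in its first intron, and fbxo11a, a ubiquitin ligase subunit gene, 14 and 40. Introns of zbtb34 (11 and 32 reads), inpp4aa (14 and 40), tpst1 (29 and 72) and a gene without a symbol on chromosome 4 (11 and 34) were also lower.

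The remaining 5 lower calls had more gene reads in the mutant library and were not called by library total. The largest was that of msh3, a mismatch repair gene, where 186 mutant and 245 wildtype intronic reads stood beside 21 and 3 gene reads. In smarcal1, which codes for an annealing helicase, 599 and 725 intronic reads stood beside 85 and 41 gene reads. The others were dipk2ab and 2 genes without a symbol on chromosomes 14 and 22. Of all 15 lower introns 9 were in a gene with another tested intron, and in 7 of these no other intron was called lower. Here too the same count was not made for shorter introns. The median log2 ratio of the other tested introns, taken for each called intron, had a median of -0.56, against 0.20 beside the higher introns. The 9 lower values include pcxb for both of its called introns, at -0.78. Other introns of a gene are divided by the same gene reads as the called one, so part of a shared sign is built in.

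Calls in single gene classes were few and are given beside the shares over all tested introns, 2.92% higher and 1.46% lower, and a class of few introns without a call is not set apart by that. Among 112 tested long introns of adhesion and synapse organisers 5 were higher and 0 lower, with a median log2 ratio of 0.22 and 90 positive. The class includes the 36 protocadherin introns, of which 34 were positive, and 4 of its 5 higher calls are the nested protocadherin introns that share reads. Axon guidance genes had no call among 35 introns in Fisher's exact test (median 0.19), and neither had Wnt, Notch, BMP, TGF-beta and Hedgehog genes among 26 (median 0.24) or receptor and synaptic genes among 28 (median 0.12). Developmental transcription factors had 3 higher and 1 lower of 85 (median 0.16), extracellular matrix genes 2 higher of 17 (median 0.19) and ion channels 2 higher of 20 (median 0.14). In the ribosome, proteasome and respiratory chain class the 5 introns had a median of -0.12 and no call. The median over all 1178 long introns was 0.16, and in symbol-bearing genes of no class it was 0.12.

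Well-covered introns of these classes had varied ratios, and those given here stayed under 2-fold. The intron of robo2, an axon guidance receptor gene, had 416 mutant and 345 wildtype reads over 204838 bp (1.36-fold, 1.16 to 1.59, adjusted p = 0.004), and that of epha7, an ephrin receptor gene, had 257 and 266 (1.01-fold, 0.801 to 1.28). In celf5a, an RNA-binding protein gene, reads were 433 and 402 (1.05-fold, 0.873 to 1.26). The intron of galntl6, of a family of mucin-type glycosylation enzymes, had 326 and 228 reads (1.49-fold, 1.17 to 1.89, adjusted p = 0.022 by Fisher's exact test). Those of robo2 and galntl6 thus passed the p threshold but not the 2-fold size. The intron of smad7, an inhibitor of TGF-beta signalling, had 218 and 335 reads, which followed its gene reads of 402 and 619 (1.00-fold, 0.806 to 1.25).

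Few genes differed 2-fold in level between the libraries, whether or not they held a long intron. Of 931 genes with a long intron and at least 20 gene reads, 7 were at least 2-fold higher in the mutant library (0.752%, 0.303 to 1.54%). At least 2-fold lower were 3 (0.322%, 0.0665 to 0.939%). Over all 10175 genes with at least 20 gene reads the shares were 0.835% and 1.09%. The coefficient of a long intron was also similar in its rank between libraries, with a Spearman correlation of 0.935 across the 1178 introns, given as a description since introns of one gene share gene reads and both libraries share length and sequence.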

How the data were processed

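Zebrafish poly(A) RNA was sequenced on the SOLiD platform after 18 cycles of amplification, per the labels' protocols. Submitters' processing notes name the build Zv9; the aligner, the counter and its handling of strand and of repeats were not given in the sources used here. Intronic read counts were deposited by the authors as whole numbers, not normalized, for introns with at least 1 read in each library. Per the file headers, RPuKM is a form of RPKM that divides reads by unique intron length and library size. The retention coefficient, a ratio of RPuKM to a deposited gene value, is the authors' own; their deposited fold and log2 columns were not used. Positions are counted from 1.

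Library sizes were computed from counts, lengths and RPuKM. Gene reads were recovered as the smallest whole numbers that give the deposited gene values (10223 of 10223 within 1e-06 bp). For some genes the true reads may be a multiple of these. Intervals are then too wide, p-values too large, and calls can be missed. Gene reads printed beside intronic reads are in such genes too small, while the ratio between libraries changes little. Groups came from the genotype labels. Intronic and gene reads of both libraries were compared by Fisher's exact test (scipy 1.17.1, two-sided, Benjamini-Hochberg) over the 20223 introns that had a gene value and 20 or more reads, and calls needed at least 2-fold. The log2 ratio used a pseudocount of 0.5. Ratio intervals are exact conditional 95% intervals of the odds ratio, with gene reads in the error; those of medians come from order statistics. The tests were tested on simulated data. Symbols came from a Refseq table of GRCz12tu, which gave a name to 10241 of 10715 gene IDs (95.6%) and nothing else. TMM factors came from edgeR 4.0.16 in R 4.3.3.

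Members and gene lists were chosen with earlier results of these data known. Named introns were all called ones, the longest, those with the highest and lowest wildtype coefficients, genes with most long introns, the best covered of each gene class, and those next to the length limit. Calcium channel and crystallin neighbours were singled out after their values were seen. The 41 long introns without a gene value entered no retention test. No sequence was printed, since no genome of the build was used here. One item of the naming rule is not reported here.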

Additional observations from a re-analysis of the deposited data

How the results depend on the processing

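No paired analysis was possible because there was 1 library per genotype, and for the same reason no library could be left out. Of 45 alternative values, 33 stayed within 1.5 times the reported count or within the interval of the reported median. The median log2 ratio of long introns did so under all 9 alternatives run for it (0.13 to 0.17), including a minimum of 100 reads chosen after seeing the data. Requiring 4-fold left 5 higher and 3 lower introns. Requiring a unique length over 20000 bp left 31 higher and 6 lower introns of 749, and a median wildtype coefficient of 0.0111. With 1 intron per gene ID, the one with most reads, 28 of 922 were higher, close to the 2.92% over all tested introns. The median wildtype coefficient of that set was 0.0130. With at least 50 gene reads in each library the median coefficient was 0.0121 in the mutant and 0.0110 in wildtype. In place of the coefficient, RPuKM had medians of 0.0959 in the mutant and 0.0850 in wildtype. TMM factors gave genes with a long intron a median log2 level ratio of -0.038 in place of 0.014. Fewer introns enter each restricted set, and other causes were not tested. Without a minimum 36 were higher and 10 lower, and without protocadherin introns, a choice made after seeing the data, 45 and 15. A long intron with few reads can show only large changes, since with 20 to 49 reads the quartiles of the log2 ratio were -0.56 and 0.72.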

Other observations

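The 41 long introns without a gene value belong to no retention comparison. Scaled by library total, 36 of them had enough reads, and by Fisher's exact test 0 were called higher and 0 lower, also at an unadjusted p under 0.05 with at least 2-fold. Of all 596 such introns without a gene value 17 were higher and 21 lower, so that 0 of 36 does not set the long ones apart. Their median log2 ratio was 0.13, with 22 positive. Among them was the intron of cfap53, which codes for a cilia protein and encloses part of the motor gene myo5b, with 28 mutant and 59 wildtype reads. The intron of vstm2a (530857 bp) had 7672 and 8876 reads.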
